A study of Homo sapiens with 30 samples.

Results

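Class IND.Extend was 1 of the classes named in the identifiers of nuclear off-target regions of mitochondrial base editors, and its members were all regions of the ND4 and ND5.1 lists whose identifier carried that word. The class held 35 of 83 regions of the ND4 list and 167 of 539 of the ND5.1 list, 202 of the 1949 regions in 4 lists. Class IND of the same list, with 36 and 333 regions, was the comparison group. The files define neither class, and the sources used here do not give how regions were assigned to them.

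The editors, called DdCBEs, place the parts of a split bacterial deaminase, DddA, on a pair of TALE arrays, proteins that read DNA base by base, and a targeting signal sends them to mitochondria. DddA converts cytosine to uracil in double-stranded DNA, without unwinding it, and prefers a cytosine that follows a thymine. Detect-seq labels the deoxyuridine left in the DNA, pulls down the fragments that carry it and reads their positions, so it also finds deamination in nuclear DNA.

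All libraries came from HEK293T, a transformed human embryonic kidney cell line. The descriptions of 10 libraries named ND4 and those of 8 named ND5.1, after the mtDNA gene at which the arrays were aimed. Both sets held 2 pulldown libraries of the complete editor in the L1397N orientation of the DddA parts, 2 labelled Lipo2000, 1 with dead DddA, 1 each with the left or the right TALE array off and MTS in the title, and 1 input library. The ND4 set also held 2 libraries of the L1397C orientation. The ND5.3 and ND6 lists were used for overlap and distance only. Both of the 2 libraries named for ND5.3 were of the L1397C orientation. The titles of 8 libraries named ND6, and they were of the same kinds as in the ND5.1 set. The lists are pooled by the authors and carry no value per library, so no error between replicates could be computed, depth is unknown, and every p-value below counts regions, not libraries. Dead DddA, Lipo2000 and input values were not analysed here, and no background measured in them stands beside the regions.

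The sequence of a member could be read where a RefSeq promoter window of GRCh38.p14 held it whole, which was so for 9 of the 202 members. They are printed here to show what a listed interval contains. Each is read 5′ to 3′ on the strand the list gives, with the listed interval in capitals and up to 10 flanking bases in lower case. ATXN7, DNAJC2, SMIM30, SAP30L and C1R were named by the rule for named regions, and PPM1L, DHRS3, PIP5K1A and CENPF were added to complete the members with a sequence. The 3 ND4 members lay before annotated starts. These were of PPM1L (a phosphatase, chr3:160842037-160842074, minus strand), DNAJC2 (a ribosome-associated chaperone, chr7:103344948-103344980, plus strand) and SMIM30 (a small membrane protein, chr7:113118630-113118653, minus strand). The PPM1L interval also lay inside that gene, 75 to 112 bases before an internal start and 85806 bp from the nearest gene end.
PPM1L: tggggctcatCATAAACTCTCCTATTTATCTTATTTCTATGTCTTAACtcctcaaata
DNAJC2: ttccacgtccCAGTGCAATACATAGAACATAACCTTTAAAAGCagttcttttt
SMIM30: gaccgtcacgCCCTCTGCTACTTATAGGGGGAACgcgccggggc

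The 6 ND5.1 members lay at the promoters of ATXN7 (a SAGA complex subunit; chr3:63863100-63863149, plus strand), DHRS3 (a retinal reductase; chr1:12618165-12618174, plus), PIP5K1A (a lipid kinase; chr1:151198489-151198502, plus), CENPF (a kinetochore protein; chr1:214603010-214603023, plus), SAP30L (a Sin3 corepressor subunit; chr5:154445807-154445819, plus) and C1R (a complement protease; chr12:7092480-7092505, minus).
ATXN7: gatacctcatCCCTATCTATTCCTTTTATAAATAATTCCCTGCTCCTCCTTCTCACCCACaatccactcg
DHRS3: ttgtCCTTTCCAACttggagaggg
PIP5K1A: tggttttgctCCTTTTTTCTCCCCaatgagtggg
CENPF: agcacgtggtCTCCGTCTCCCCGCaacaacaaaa
SAP30L: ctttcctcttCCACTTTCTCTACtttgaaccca
C1R: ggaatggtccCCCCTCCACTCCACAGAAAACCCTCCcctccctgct

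Every one of these 9 intervals began and ended with C on its listed strand, as did all 17 class IND intervals of both lists that a window held. This gave the reading of the files used here: coordinates count from 1 with both ends included, and the strand is that of the cytosines. That reading rests on intervals at promoters and was not checked for regions without a sequence. Read from 0, both ends were C in 5 of 9 and 9 of 17 intervals. A T stood before the opening C in 6 of 9 members and in 17 of 17 class IND intervals. The exceptions were DNAJC2, SMIM30 and C1R. Over the whole intervals, 30 of 85 C in the members followed a T (35.3%), against 43 of 147 in class IND (29.2%). DNAJC2, an interval of 33 bases with 7 C, was the only 1 of the 9 with no C after a T.

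C and T together made up a median of 82.3% of bases on the listed strand in the 6 ND5.1 members, 54.2% in the 3 ND4 members and 61.5% in the 17 class IND intervals, and the PIP5K1A interval of ND5.1 held nothing else. Median GC content was 50% over the 9 members and 65.2% over the 17. The CTCF core motif, searched on both strands over the whole window, occurred in the windows of CENPF and C1R, in 4 of the 17 class IND windows and in 2.41% of all 35116 promoter windows of the table. The intervals with a sequence lay at promoters only and were too few to test, so these values describe them and not the class.

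The signal value, a score that the authors deposited for each region, ran from 3.645 to 33.17 in the 35 ND4 members, with a median of 7.775, and from 3.563 to 26.82 in ND4 class IND, with a median of 5.565. In the ND5.1 list the 167 members ran from 3.883 to 148.6 with a median of 9.466, and class IND ran from 4.095 to 108.7 with a median of 12.5. The classes overlapped over nearly their whole ranges in both lists. With rank 1 the highest signal of a list, the median rank was 35 of 83 for ND4 members and 53 for ND4 class IND, and it was 341 of 539 for ND5.1 members and 225 for ND5.1 class IND. By median rank, the class thus stood higher than class IND in ND4 and lower in ND5.1.

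**Figure D1:**
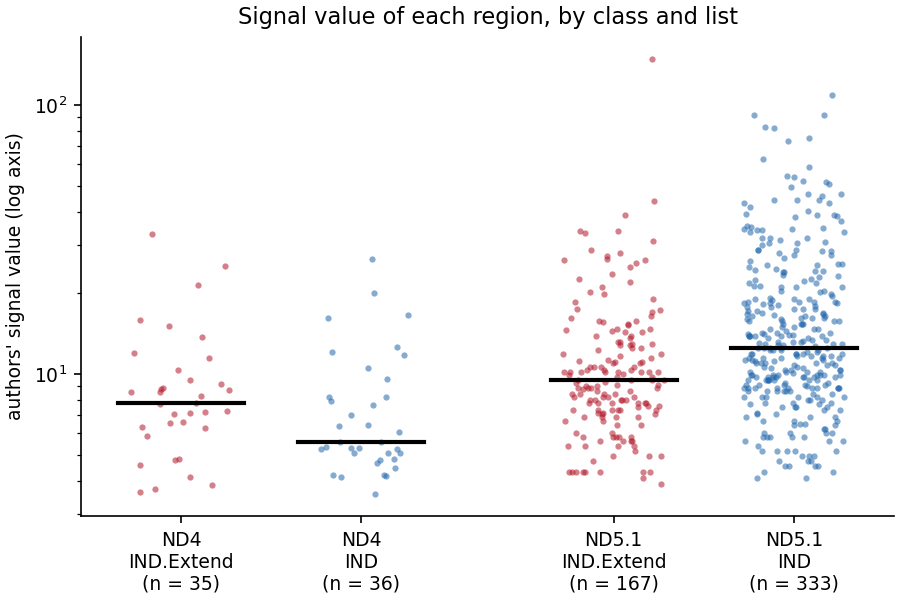
The plot shows the authors' signal value on a log axis for every region, 1 point per region, by list and class, with a bar at the median. The ND4 members have a higher median than ND4 class IND (7.775 and 5.565), and the ND5.1 members a lower one than ND5.1 class IND (9.466 and 12.5), while the ND5.1 region of highest signal is a member.

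Against the list median, 59 of 167 ND5.1 members lay above it (35.3%) and 196 of 333 class IND regions did (58.9%), a difference of -23.5 percentage points (95% Newcombe interval -32.1 to -14.3). Fisher's exact test, two-sided and with Benjamini-Hochberg adjustment over 18 tests as in all class comparisons below, gave an adjusted p of 4.45e-06. Against the 42 ND5.1 class IND regions found in no other list the difference was -14.7 points and did not pass (adjusted p = 0.393 by the same exact test). In the ND4 list 22 of 35 members (62.9%) and 13 of 36 class IND regions (36.1%) lay above the median, a difference of 26.7 points (3.53 to 46.3) that missed the threshold of 0.05 in Fisher's exact test (adjusted p = 0.0835). The 2 contrasts differed by 50.3 points, and Zelen's exact test of equal odds ratios passed (adjusted p = 0.000981 over 9 measures). That difference depended on where the list was split: counting regions above the 3rd quartile of signal in place of the median, members and class IND of ND4 differed by 0.714 points, and Zelen's exact test missed the threshold (adjusted p = 0.549).

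Ordered from highest to lowest signal and divided into 4 groups of near-equal size, the ND5.1 list held 24 members among its 135 strongest regions (17.8%), then 37 of 135 (27.4%), 47 of 135 (34.8%) and 59 of 134 (44.0%). The share of members rose at each step down. The ND4 list gave 9 of 21, 14 of 21, 5 of 21 and 7 of 20, with no such order.

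The strongest ND5.1 member lay near an end of GOLGB1, the gene of the Golgi tether giantin. It lay at chr3:121749076-121749105 on the minus strand, inside the gene and 636 bp from a start. Its signal of 148.6 ranked 1 of 539. The next member of ND5.1, in EXOC6 (an exocyst subunit; chr10:92850678-92850699), stood at 43.89 and rank 25. NACA, which encodes a chaperone subunit for nascent proteins, had a member 808 bp outside its start (chr12:56726107-56726149) with 38.86 and rank 32. Members near or in KALRN (33.92), SFMBT1 (an MBT-domain repressor; 1990 bp away, 33.92), MAGI1 (a junction scaffold; 31.06), MAP3K21 (a kinase; 5945 bp away, 28.74), CACNA1C (an L-type calcium channel; 27.38), NAA30 (an N-terminal acetyltransferase; 26.77) and ATXN7 (26.55) followed, down to rank 72. Also in this range were a region 10698 bp from LINC02527, whose closest protein-coding gene was FYN, a Src-family kinase, with 33.24, and a region in the noncoding LOC105369376 with 28.1. Only the GOLGB1 region stood in the first 24 ranks of its list. The lowest ND5.1 members lay in LINC00934 (3.883) and TSPAN11 (4.095).

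In the ND4 list members took ranks 2, 4 and 5. Rank 2, with a signal of 33.17, was 591 bp from PATE3, a gene named for expression in prostate and testis (chr11:125787502-125787536, minus strand). Rank 4, with 25.09, was 17430 bp from the pseudogene GPR160P2. Rank 5 lay in HCAR2, a receptor for niacin and hydroxybutyrate (chr12:122701468-122701505, minus strand, 21.42). GALNT2, which starts O-glycosylation, held a member of 15.91, PARP14, a mono-ADP-ribosyltransferase, 1 of 15.04 and 46 bp, the widest ND4 member, and NOMO2, an endoplasmic reticulum membrane protein, 1 of 13.75. HCAR3 (11.93) and a region 18690 bp from LOC124903226 (11.41) completed the 8 strongest, and PACSIN2 (3.645) and PDGFC (3.743), a membrane-bending protein and a growth factor, held the weakest.

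The listed strand differed between the classes in ND5.1. Of its members 61 of 167 were on the plus strand (36.5%), against 184 of 333 class IND regions (55.3%), a difference of -18.7 points (-27.4 to -9.48; Fisher's exact test, adjusted p = 0.000432). Against the 42 class IND regions of no other list it was -18.2 points and did not pass (adjusted p = 0.214 in the same exact test). In the ND4 list 11 of 35 members (31.4%) and 16 of 36 class IND regions (44.4%) were on the plus strand, a difference of -13.0 points (-33.5 to 9.26) with an adjusted p of 0.541 in Fisher's exact test. The contrast was not shown to differ between the lists (Zelen's exact test, adjusted p between 0.897 and 1.0 for all measures other than signal and width). Minus-strand members outnumbered plus-strand members in each ND5.1 signal group. On the plus strand were 6, 14, 16 and 25 members, from the strongest group of 24 to the weakest of 59. Class IND was not counted by strand in these groups, so the contrast between the classes within them is not known. Class DR was on the minus strand in all 11 ND4 and all 26 ND5.1 regions, and class DL in all 13 of ND5.1 but not in its 1 ND4 region. In the ND6 list 47 of 91 DL and 14 of 29 DR regions were on the minus strand.

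Against the strand of the protein-coding gene that held the region, known for 82 ND5.1 members and 134 class IND regions, 35 members (42.7%) and 76 class IND regions (56.7%) were on the same strand. The difference of -14.0 points (-27.0 to -0.317) missed the threshold (adjusted p = 0.202 in Fisher's exact test over the 4 comparisons that were added after the data were seen). In ND4 the counts were 7 of 12 and 10 of 17. The other added measure was overlap with a promoter window, counted on chromosomes that have windows. It held for 6 of 164 ND5.1 members (3.66%) and 19 of 320 class IND regions (5.94%; Fisher's exact test, adjusted p = 0.772). In ND4 it held for 3 of 35 members and 1 of 34 class IND regions (adjusted p = 0.8185 by the same exact test).

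ND5.1 members were more often wide than class IND regions as a whole. Their widths, given as end minus start and so 1 less than the number of bases, ran from 3 to 56 bp with a median of 24 against 5 to 66 bp with a median of 18. Of the members 102 of 167 (61.1%) and of class IND 159 of 333 (47.7%) were wider than the list median of 19 bp, a difference of 13.3 points (4.06 to 22.2; Fisher's exact test, adjusted p = 0.0211). Against the 42 class IND regions of no other list this turned to -3.21 points and did not pass (adjusted p = 0.94 by Fisher's exact test). Widths of 30 bp or more occurred in 50 members (29.9%) and 59 class IND regions (17.7%). ND4 members ran from 3 to 46 bp with a median of 20, against 10 to 48 bp with a median of 25 in class IND. Of them 17 of 35 (48.6%) and 23 of 36 (63.9%) exceeded the list median of 21 bp. These shares differed by -15.3 points (adjusted p = 0.424 in Fisher's exact test). The width contrast was not shown to differ between the lists (Zelen's exact test, adjusted p = 0.17).

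**Figure D2:**
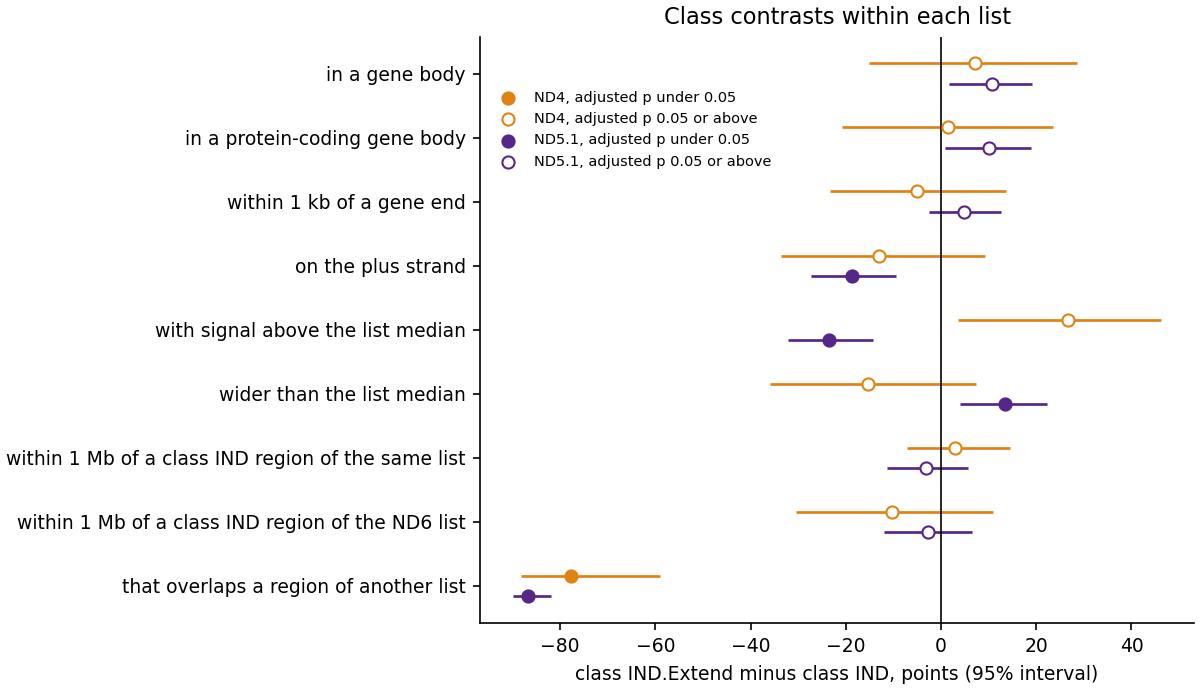
Each point is the share of class IND.Extend minus the share of class IND with a property, in percentage points with its 95% Newcombe interval, for ND4 and ND5.1, and filled points passed Fisher's exact test after adjustment over 18 tests. Strand, signal and width are filled for ND5.1 only, and the overlap with other lists for both. The overlap contrast was known from an earlier look at these data, so it is description and not independent support. Whether absence from other lists entered the assignment of the classes is not known.

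Gene context did not differ past the threshold in either list. Of ND5.1 members 114 of 167 (68.3%) lay in a gene body and of class IND regions 192 of 333 (57.7%), a difference of 10.6 points (1.57 to 19.1) that missed the threshold after adjustment (Fisher's exact test, adjusted p = 0.0755). For protein-coding genes the counts were 97 (58.1%) and 160 (48.0%), 10.0 points apart (0.751 to 19.0; Fisher's exact test, adjusted p = 0.0835). Both shares passed when regions under the lower quartile of the list's signal were left out, with differences of 19.3 and 18.1 points (Fisher's exact test, adjusted p = 0.00249 and 0.00599). That cut kept 107 of 167 members and 273 of 333 class IND regions, so it removed a larger share of the members. For ND4, 21 of 35 members (60.0%) and 19 of 36 class IND regions (52.8%) lay in a gene body, 7.22 points apart (-15.2 to 28.6; adjusted p = 0.714 in Fisher's exact test), and 18 of each lay in protein-coding genes. The remaining gene-body members, 3 in ND4 and 17 in ND5.1, lay in noncoding genes alone. The RefSeq table gives gene bounds without exons, so a position in an exon, intron or UTR is not stated.

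Within 1 kb of an end of any gene lay 38 ND5.1 members (22.8%) and 60 class IND regions (18.0%), 4.74 points apart (-2.52 to 12.6; adjusted p = 0.424 in Fisher's exact test), and 6 of 35 against 8 of 36 in ND4 (adjusted p = 0.812 by the same exact test). For protein-coding genes 6 ND4 and 25 ND5.1 members qualified. In ND4 these were PATE3, HCAR2 and HCAR3, described above, a region 66 bp from PPP3CB, which encodes a catalytic subunit of calcineurin (7.098, rank 42), and the regions at SMIM30 (4.834, 76 bp before the start) and DNAJC2 (4.779, 181 bp before the start), the latter inside the neighbouring gene PMPCB, which encodes a subunit of the mitochondrial processing peptidase. The 10 strongest of ND5.1 included, beside GOLGB1, NACA and ATXN7, both regions of THAP2 (a zinc finger protein; 19.84 and 17.46), C1R (18.95, 35 bp before the start), SAP30L (13.11), SOX12 (a transcription factor; 12.94) and GJC1 (a connexin; 10.99). The ATXN7 interval ran across the start site of that gene and also overlapped the protein-coding gene THOC7. No group of related functions was tested.

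Some members lay inside other regions. In 6 pairs a member was nested in a wider region of the same list and strand, in 5 in another member and in 1 in a class IND region. All 6 pairs shared their end coordinate, and the inner region had the lower signal in all 6. The 5 outer members lay near RNU6-1264P in ND4 and at NHLH2, SLIT1, THAP2 and SHROOM4 in ND5.1. At SLIT1, an axon guidance gene, the inner interval chr10:97072774-97072782 had 12.51 and the outer one, which began at 97072765, had 16.19. The member inside class IND, chr1:58986944-58986947 near the pseudogene PHB1P3, had 8.866, and the class IND region chr1:58986899-58986947 had 19.97. No class IND region of ND4, ND5.1 or ND6 overlapped another of its list. Counted once per overlapping set, the class held 34 ND4 and 163 ND5.1 members, and the ND5.1 strand difference was -17.8 points (adjusted p = 0.000878 in Fisher's exact test).

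Near-identical gene copies appeared among the ND4 members. HCAR2 and its neighbour HCAR3 each held 1, on the same strand and 13436 bp apart, with 21.42 and 11.93. NOMO2 (chr16:18561089-18561107, plus strand, 13.75) and NOMO1 (chr16:14834773-14834791, minus strand, 7.72) each held 1 of 18 bp. The sources used here do not say how reads that match both copies were placed, so the split of signal within each pair is uncertain. KANSL1, a subunit of a histone acetyltransferase complex, held 2 ND5.1 members 27022 bp apart (4.312 and 7.777), and OTUD7B, a deubiquitinase, held 2 on opposite strands (8.199 and 6.699). Of 21 genes that held ND4 members and 109 that held ND5.1 members, 0 held members of both. The gene set used held 59679 genes, and sets this small need share none, so the 0 is not a result about the members.

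Distance to class IND was counted between interval edges. Of 35 ND4 members 12 had no ND4 class IND region on their chromosome, and for the other 23 the median distance was 26.6 Mb, against 11.1 Mb for 29 of 36 class IND regions to the next of their class. Within 1 Mb lay 1 of 35 members and 0 of 36 class IND regions, where 3 counts of the total, the limit used for a count of 0, allow a share of up to 8.33%, and the Wilson limit is 9.64% (Fisher's exact test, adjusted p = 0.683). ND5.1 members lay at a median of 2.45 Mb from ND5.1 class IND and class IND regions at 1.89 Mb from each other. Of them 49 of 167 (29.3%) and 108 of 333 (32.4%) had one within 1 Mb, a difference of -3.09 points (Fisher's exact test, adjusted p = 0.683). Members were therefore not shown to lie nearer to class IND than class IND regions lie to each other. Distances to lists of different length cannot be set against each other, since a longer list leaves shorter gaps.

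To class IND regions of ND6 that do not overlap the region itself, the median distance was 1.69 Mb for ND4 members and 1.53 Mb for ND4 class IND, and 1.25 Mb and 1.125 Mb in ND5.1. Within 1 Mb lay 9 of 35 and 13 of 36 in ND4, and 73 of 167 (43.7%) and 155 of 333 (46.5%) in ND5.1 (Fisher's exact test, adjusted p = 0.665 and 0.683). The median distance of ND4 members to ND5.1 class IND was 3.005 Mb, and 1.56 Mb to any region of ND5.3.

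**Figure D3:**
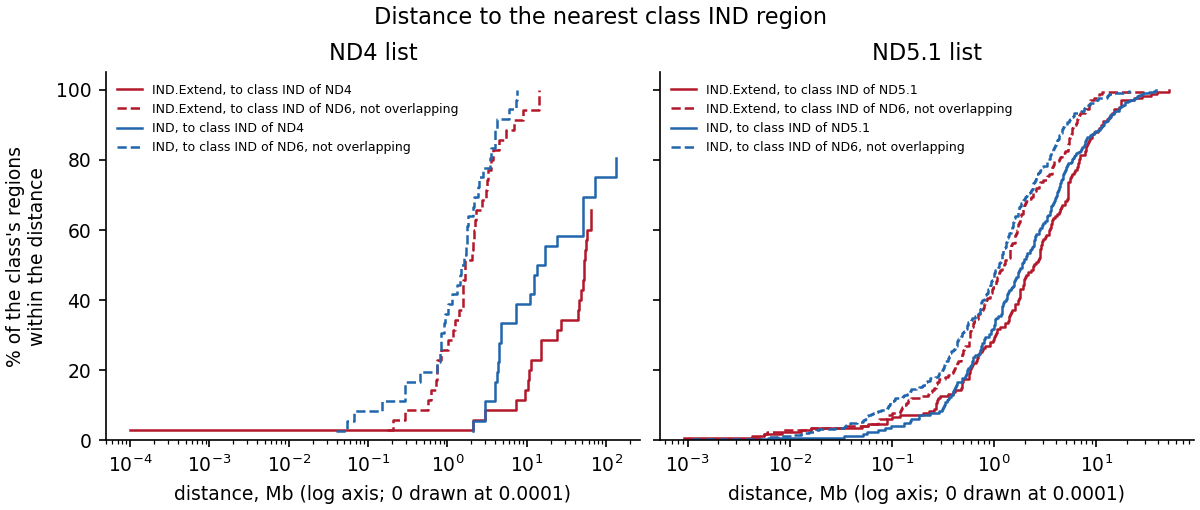
Lines give the cumulative percentage of regions within a distance of the nearest class IND region, on a log axis in Mb, for class IND.Extend (red) and class IND (blue), to class IND of the same list (solid) and to non-overlapping class IND of ND6 (dashed). The ND4 solid lines end below 100% because 12 members and 7 class IND regions have no ND4 class IND region on their chromosome, and in ND5.1 the red and blue lines run close together.

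Distance was also taken to the nearest class IND region of any list or ND5.3 region. Within 10 kb lay 1 of 35 members in ND4 and 7 of 167 in ND5.1, within 100 kb 1 and 16, and within 1 Mb 15 and 89. The same counts were not made for class IND, so whether they are low or high is not known. The ND4 case was the nested region near PHB1P3. In ND5.1 the GJC1 member, chr17:44830704-44830731, had the same bounds as an ND5.3 region. It was the only member that overlapped a region of another list, against 28 of 36 ND4 and 291 of 333 ND5.1 class IND regions. That contrast was known from an earlier look at these data and is description only. For the 0 of 35 ND4 members the 3-count limit allows a share of up to 8.57%, and the Wilson limit is 9.89%. The others lay 921 bp (in LOC105378797), 4314 bp (STUM), 5189 bp (EIF3D, a translation initiation factor subunit), 5552 bp (RPS2P1), 6000 bp (NFKB2, an NF-kappa-B subunit) and 8428 bp (NUB1, a regulator of NEDD8) from such a region. In STUM the member had a signal of 9.906, rank 312, and the class IND region 91.32, rank 4, on the other strand. In MAGI1 the order was the reverse, with 31.06 and rank 54 for the member and 6.912 and rank 447 for the class IND region. Including these, 7 genes held both a member and a class IND region of ND4 or ND5.1, the others being EIF3D, FOXN3, LOC105378797, LYPLAL1 and NUB1. This number was not set against an expected one and is description only. Between the lists, the closest pair of members lay 77413 bp apart, at NOMO1 (ND4) and LOC101927469 (ND5.1).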

How the data were processed

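Detect-seq of HEK293T cells was deposited as 4 lists of regions. The submitters' processing notes name Bowtie2, cutadapt, Picard, SAMtools and hg38. Their versions and roles, the calling of regions and the libraries behind each list are not stated in the sources used here. The signal, per the file headers, is a score without a stated normalization that the authors deposited, used to rank regions within a list. The ND5.3 list gives positions alone.

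Members and lists of properties were chosen with earlier results of these data known. Shares were compared with two-sided Fisher's exact tests, with Wilson and Newcombe intervals at 95%, and between lists with Zelen's exact test (scipy 1.17.1); both were tested on simulated data. Intervals cover counting error only. Overlap means at least 1 bp. Genes and promoter windows (250 bases before to 50 after a start) came from RefSeq on GRCh38.p14; the windows hold nothing of 1 autosome. Named regions were the 8 ND4 and 12 ND5.1 members of highest signal, the 2 lowest of each list, up to 10 per list within 1 kb of a protein-coding gene end, genes with 2 or more members, members that overlap another list, and up to 8 within 10 kb of class IND; a region that this rule names is not reported here. Alternatives were other windows, medians, signal minimums, comparison groups and merging.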

Additional observations from a re-analysis of the deposited data

Results flagged for a closer look

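The contrast in signal between class IND.Extend and class IND differed between the ND4 and ND5.1 lists by 50.3 percentage points in the share above the list median (Zelen's exact test, adjusted p = 0.000981 over 9 measures). It is given here because the same contrast ran in opposite directions in the 2 lists, 26.7 points in ND4 and -23.5 points in ND5.1. The lists came from different arrays, and the ND4 set of libraries also held the L1397C orientation. Their part in the difference was not tested. With regions of a class within 1 kb merged the difference was 50.8 points (Zelen's exact test, adjusted p = 0.000888), and without chromosome X it was 49.5 points (0.00173 by the same exact test). It no longer passed with the 3rd quartile of signal as the split (17.6 points; Zelen's exact test, adjusted p = 0.549) or against class IND regions of no other list (27.5 points; adjusted p = 0.761 by the same exact test).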

How the results depend on the processing

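Of the class differences under the alternatives, 97 kept their direction and their side of the threshold of 0.05, 13 changed direction, 2 passed newly and 3 no longer passed, 1 of which is also among the 13. Leaving out regions under the lower quartile of signal kept 107 of 167 ND5.1 members and 273 of 333 class IND regions. The ND5.1 differences for gene bodies and protein-coding genes then rose to 19.3 and 18.1 points and passed. The number of measures whose contrast differed between lists, 1, became 2 there (width passed too), 0 with the 3rd quartile of signal as the split, and 0 against class IND regions of no other list.

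That last comparison group held 8 ND4 and 42 ND5.1 regions. Against it the ND5.1 differences kept their direction but did not pass for plus strand (-18.2 points; adjusted p = 0.214) and signal (-14.7 points; adjusted p = 0.393), both by Fisher's exact test, and they changed direction for width (-3.21, which also no longer passed; adjusted p = 0.94) and for ND6 class IND within 1 Mb (3.24). In ND4, gene body (-2.5), protein-coding gene (-11.1) and plus strand (6.43) changed direction.

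Against all other regions of the list, the ND4 differences changed direction for gene body (-0.417), protein-coding gene (-2.74) and width (0.655). Without chromosome X the ND4 protein-coding difference was -2.94 points. With ends of protein-coding genes only, the ND4 gene-end difference was 0.476. With windows of 100 kb the ND5.1 distance difference to its own class IND was 1.78, and with 10 Mb it was -24.6 in ND4 and, to ND6, 0.608 in ND5.1. None of these ND4 or distance differences passed under any of the settings. The cause of each change was not tested.

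No paired analysis was possible because each list pools its libraries and gives no values by replicate. Leaving out a replicate was not run for the same reason. Depth per library is unknown, and with 35 members the ND4 intervals are wide.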

Other observations

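Chromosome 10 held 17 of the 167 ND5.1 members (10.2%) and 9 of the 333 ND5.1 class IND regions (2.70%). Chromosome 1, which held the most members, had 27 (16.2%) and 46 (13.8%). Chromosome 10 was singled out after its values were seen, and the difference was not tested.

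Of the 202 members, 41 had a signal value equal to that of another member of their list, so ranks among them are shared.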
